A study of Mus musculus with 10 samples.

Results

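The genes described here are 10 immediate early genes, taken by symbol from the FPKM rows of every library: Fos, Fosb, Fosl2, Jun, Junb, Jund, Egr1, Ier2, Atf3 and Dusp1. They are 10 of the 28454 genes listed, and all 10 were found, had values above 0 in every library and passed the filter on low values (at least 1 FPKM in at least 4 of 10 libraries), as did 12805 genes in all. RNA was sequenced from CD31-positive cells that had been sorted with magnetic beads from B16F10 melanomas, a transplantable mouse melanoma line, after depletion of cells carrying CD11b. One group, called Shb-inactivated, came from adult mice carrying Cdh5-CreERt2, an inducible Cre recombinase driven by the endothelial gene Cdh5, together with floxed alleles of Shb (6 libraries). The other, wild type, came from adult mice carrying Cdh5-CreERt2 without floxed Shb (4 libraries), so the Cre transgene was common to both groups. Shb encodes an adaptor protein of tyrosine kinase receptor signalling. The labels name tumours as the tissue, and their source field names tumours and lungs together. They do not describe how the tumours were dissociated into cells, so no comparison by dissociation could be made directly.

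Fos and Jun proteins pair through leucine zippers to form AP-1, a transcription factor that binds a short palindromic DNA motif. Their genes, like Egr1, Ier2, Atf3 and Dusp1, are switched on within minutes of a growth factor, stress or mechanical signal, without new protein synthesis, and many of their transcripts are short-lived. The same genes are known to be induced when tissue is enzymatically dissociated into cells, so their level in sorted cells can carry both the state in the tissue and the handling that followed.

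The 8 members with a RefSeq promoter entry were searched, on both strands, for short motifs in the 250 bases before the gene start (GRCm38.p6). Egr1 and Ier2 were not among them, so their promoters were not searched. The short CRE letters TGACG, to which CREB and ATF proteins bind, were found in 5 of 8, namely Fos, Fosb, Junb, Atf3 and Dusp1, against 28.2% of 8975 promoters of tested genes and 17.9% of all 27018 promoters. The palindromic full site TGACGTCA was found in Dusp1, against 2.82% of tested-gene promoters and 1.62% of all, and it contains 2 of the 3 short matches counted there. The AP-1 site TGANTCA was in none of the 8 (4.14% of tested-gene promoters, 6.87% of all), and neither was the CArG box of serum response factor (1.13% and 1.4%). The Egr site GCGNGGGCG was in Fosb and Fosl2 (8.84% of tested-gene promoters, 4.65% of all), and the TATA box letters TATAAA were in Fos (6.07% and 13%). These are matches of letters within a window and say nothing of binding. Sites outside the window were not looked for, so a motif not found here may still lie elsewhere near the gene. The promoters of 4 members are printed because they set 3 genes that separated the libraries by their Itgam level (Fos, Atf3 and Dusp1) beside 1 that did not (Junb), and all 4 hold the short CRE letters. They lie at chr12:85473640-85473889 on the plus strand (Fos), chr1:191183334-191183583 on the minus strand (Atf3), chr17:26508473-26508722 on the minus strand (Dusp1) and chr8:84978749-84978998 on the minus strand (Junb). Each is written in the direction of transcription, from 5′ to 3′, with short and full CRE matches in capitals, and TGACG on the opposite strand reading CGTCA.
Fos: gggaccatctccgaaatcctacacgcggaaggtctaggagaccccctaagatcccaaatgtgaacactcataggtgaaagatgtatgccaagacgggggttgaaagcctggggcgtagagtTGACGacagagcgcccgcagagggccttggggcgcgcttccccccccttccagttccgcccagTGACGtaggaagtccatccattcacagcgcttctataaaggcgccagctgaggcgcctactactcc
Atf3: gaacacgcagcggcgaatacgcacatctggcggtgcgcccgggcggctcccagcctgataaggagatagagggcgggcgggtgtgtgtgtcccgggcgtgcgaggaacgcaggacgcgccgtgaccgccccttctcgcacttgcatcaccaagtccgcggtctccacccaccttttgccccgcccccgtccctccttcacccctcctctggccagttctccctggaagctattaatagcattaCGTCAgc
Dusp1: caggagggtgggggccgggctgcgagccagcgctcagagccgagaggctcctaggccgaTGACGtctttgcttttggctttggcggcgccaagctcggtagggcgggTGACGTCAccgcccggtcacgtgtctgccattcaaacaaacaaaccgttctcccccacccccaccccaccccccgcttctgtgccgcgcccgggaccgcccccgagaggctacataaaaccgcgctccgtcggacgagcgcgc
Junb: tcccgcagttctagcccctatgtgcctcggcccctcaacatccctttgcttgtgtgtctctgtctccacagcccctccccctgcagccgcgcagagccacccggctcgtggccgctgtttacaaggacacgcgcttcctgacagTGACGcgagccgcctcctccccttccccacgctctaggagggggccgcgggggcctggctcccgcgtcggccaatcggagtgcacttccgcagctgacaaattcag
The short matches stood 129 and 66 bases before the start in Fos, 7 bases before it in Atf3 and 106 bases before it in Junb, counted from the base of the site farthest from the start. In Dusp1 the full site stood 143 bases before the start and the separate short match 191 bases before it. The Atf3, Dusp1 and Fosl2 starts in RefSeq lie inside the longer GENCODE vM21 gene bounds given below. The Jund window, chr8:70697489-70697738 on the plus strand, ends well before the GENCODE start of Jund at 70698949. Its motif result therefore describes bases farther upstream of that start.

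The members also shared a compact gene structure. All 10 had between 1 and 4 exons in the transcript with the longest coding part, against 20.4% of 11056 tested genes with a coding transcript, and their median was 3 exons against 9. Jun, Junb, Jund and Ier2 had 1 exon, against 2.65% of those genes. The nonamer TTATTTATT, the core of AU-rich elements known from unstable transcripts, was present in the 3′ UTR of Fos, Fosl2 and Dusp1, against 7.15% of 10881 3′ UTRs.

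Libraries differed in ways that touch every result below. Shb itself averaged 0.942 ± 0.414 FPKM in Shb-inactivated libraries (SD, n = 6) and 3.68 ± 1.19 FPKM in wild type libraries (SD, n = 4), with no overlap. FPKM scale fragments by transcript length and by library total and keep no read totals, so depth is unknown. Endothelial markers were high throughout: the summed level of 12 ran from 3840 to 5413 FPKM in Shb-inactivated libraries and from 3282 to 4281 FPKM in wild type libraries. CD11b, the depleted surface protein, is encoded by Itgam, which was 29.3 and 35.9 FPKM in Shb-inactivated 3 and 4 and 109 FPKM in wild type 3, which are called the Itgam-rich libraries. It was 0.27 to 0.42 FPKM in the other Shb-inactivated libraries and 2.27, 5.85 and 0.2 FPKM in wild type 1, 2 and 4. The summed level of 15 macrophage markers was 5238 and 4557 FPKM in Shb-inactivated 3 and 4 and 7171 FPKM in wild type 3, and at most 665 FPKM elsewhere. Wild type 3 alone was also rich in neutrophil markers (1032 FPKM summed over 10, against at most 29.98 FPKM elsewhere), and wild type 1 was the richest in melanoma markers (1106 FPKM summed over 7, against at most 342 FPKM elsewhere). Shb-inactivated 1 and 2 and wild type 1 were the lowest in summed small nucleolar RNA, with 636, 1846 and 1851 FPKM, against 3138 to 11473 FPKM in the other libraries. In these bulk samples, fewer cells of a type and less RNA per cell cannot be told apart.

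The immediate early genes were abundant in every library and varied more than most genes. Their summed level ran from 731 to 1388 FPKM in Shb-inactivated libraries, with a median of 963, and from 457 to 1874 FPKM in wild type libraries, with a median of 666. Wild type held both the highest and the lowest library, wild type 3 and wild type 1. Fos was the most abundant member in all 10 libraries. Means then descended through Dusp1, Junb, Atf3, Jun, Fosl2, Ier2, Fosb and Jund to Egr1 in Shb-inactivated libraries, and in the same order in wild type libraries. Fos lay above Dusp1 in 6 of 6 Shb-inactivated and 4 of 4 wild type libraries, while Dusp1 lay above Junb in 3 of 6 and 1 of 4, and ranges of neighbouring members overlapped in each pair. The coefficient of variation over the 10 libraries was 73.8% for Atf3 and 59.4% for Fos, higher than in 93.7% and 91.6% of 9088 genes with a mean of at least 5 FPKM. It was 21.5% for Fosl2, close to the median of 20.05% for those genes.

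No member passed the test between the groups, and the intervals were wide. On the log2(FPKM + 1) scale all 10 fold changes were above 0, that is higher in Shb-inactivated libraries, where 51.2% of tested genes were. By mean FPKM, Junb was lower there. The median fold change was 0.30 against 0.0055 over all tested genes. Members varied together over the same libraries, so here and in the subsets below they are not 10 separate observations. None passed limma with Benjamini-Hochberg adjustment over 12805 genes (adjusted p 0.9893 to 0.9985), where 0% of all genes passed. At an unadjusted limma p under 0.05 there were 442 genes (3.45%) and no member. By an exact two-sided permutation test over all 210 arrangements of the 6 and 4 libraries, 0 of 10 members were under 0.05, with p from 0.162 to 0.967, against 3.87% of all genes. In no member did the 6 Shb-inactivated libraries all lie above the 4 wild type libraries, against 0.539% of all genes. The 95% interval of the log2 fold change ran from -0.12 to 0.93 for Jun, from -0.69 to 1.44 for Fos and from -0.78 to 2.16 for Atf3, so these data allow either direction.

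**Figure D1:**
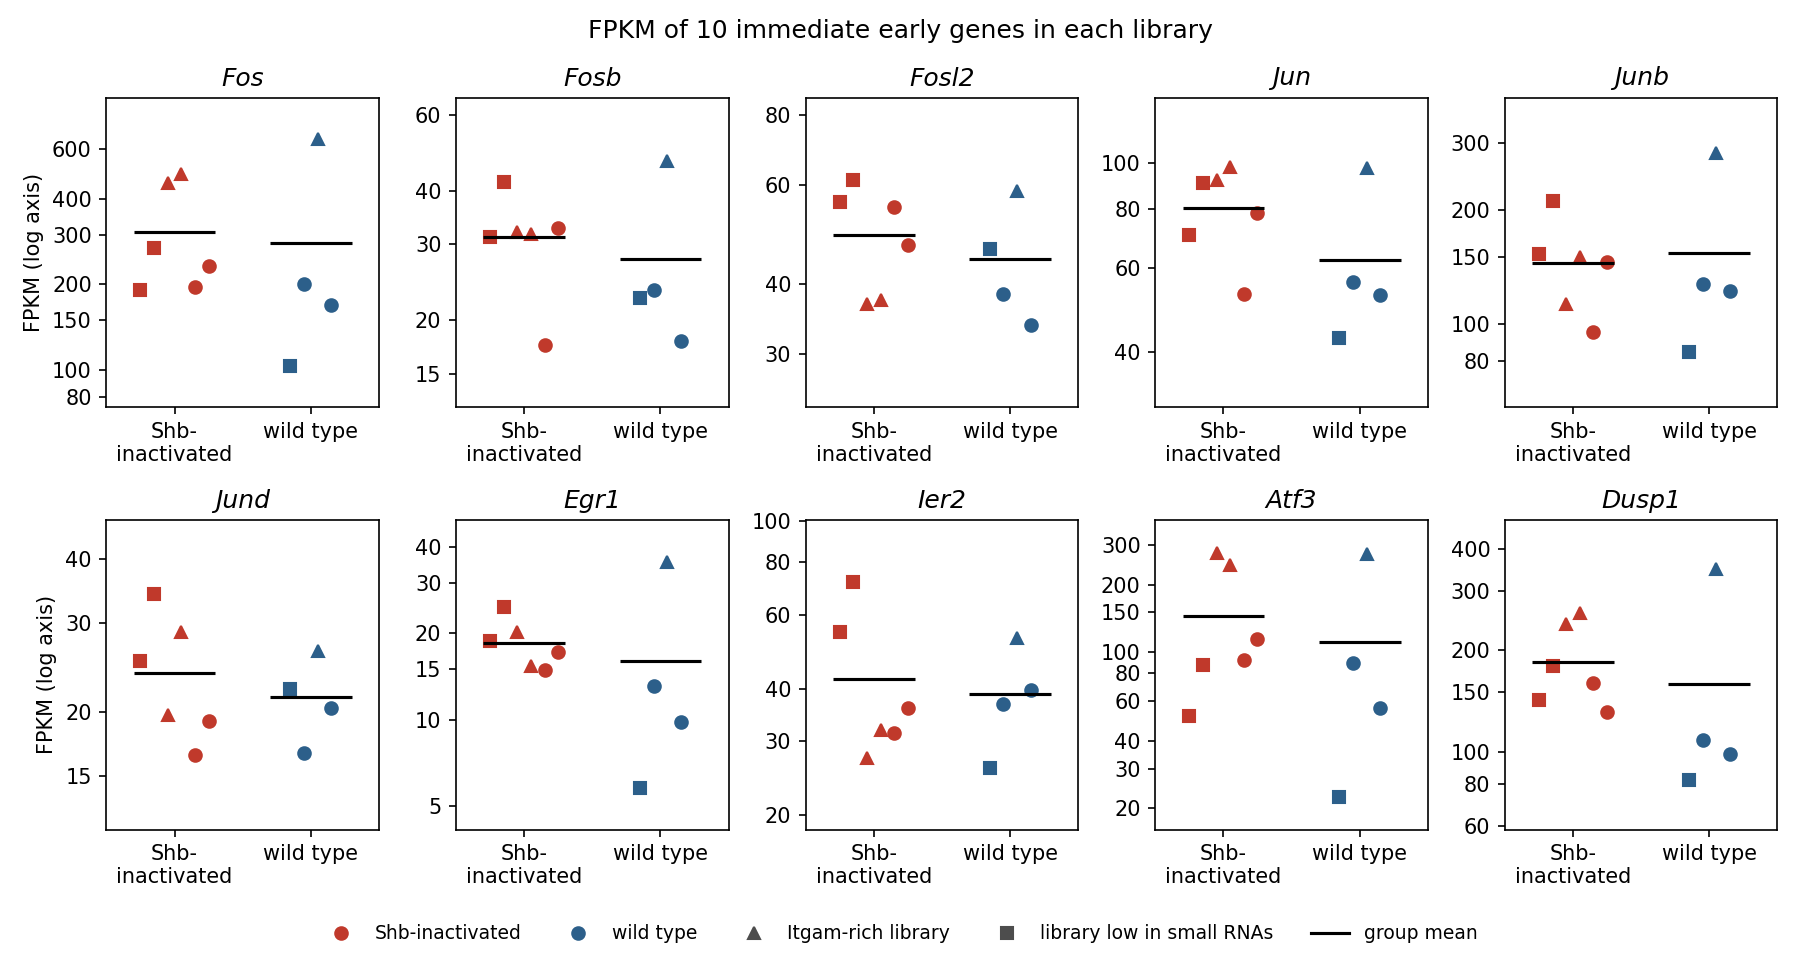
FPKM of the 10 immediate early genes on a log axis, 1 point per library, with Shb-inactivated libraries left of wild type libraries and the line at the group mean. Triangles are the 3 Itgam-rich libraries and squares the 3 libraries lowest in small nucleolar RNA. The groups overlap in every panel, and the triangle of wild type 3 is the highest wild type point in all 10.

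Fos (ENSMUSG00000021250.13, chromosome 12, 85473890 to 85477273, plus strand, GRCm38) encodes the founding AP-1 partner of Jun. It was 190.9, 269, 456, 491, 195 and 233 FPKM in Shb-inactivated 1 to 6, against 103, 200.4, 651 and 169.7 FPKM in wild type 1 to 4. The 3 Itgam-rich libraries were the 3 highest, wild type 1 was the lowest, and the groups overlapped. Fos averaged 306 ± 133 FPKM in Shb-inactivated libraries (SD, n = 6) and 281 ± 250.2 FPKM in wild type libraries (SD, n = 4), a log2 fold change of 0.37 (SE 0.48). Fosb (ENSMUSG00000003545.3, chromosome 7, 19302696 to 19310051, minus strand) encodes a Fos paralog. It was 17.5 to 42.0 FPKM in Shb-inactivated libraries and 17.9 to 46.9 FPKM in wild type libraries, a log2 fold change of 0.22 (SE 0.28). Shb-inactivated 5 was the lowest library for Fosb, and the next lowest of its group had 31.1 FPKM.

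Fosl2 (ENSMUSG00000029135.10, chromosome 5, 32135801 to 32157842, plus strand), which encodes Fra-2, followed another order. It was 56.0, 61.2, 36.8, 37.4, 54.8 and 46.9 FPKM in Shb-inactivated 1 to 6, against 46.2, 38.4, 58.6 and 33.8 FPKM in wild type 1 to 4. The 2 Itgam-rich Shb-inactivated libraries were the lowest of their group, whereas Itgam-rich wild type 3 was the highest of its own. The log2 fold change was 0.14 (SE 0.19). The ratio of Fos to Fosl2 was 12.4 and 13.1 in Shb-inactivated 3 and 4 and 3.41 to 4.96 in the other Shb-inactivated libraries, against 11.1 in wild type 3 and 2.23 to 5.22 in the other wild type libraries. Fos thus made up 86.1% to 87.7% of the summed Fos, Fosb and Fosl2 level in the Itgam-rich libraries and 59.9% to 76.6% in the other 7. Fosl1, the remaining Fos family gene, was 0.81 to 2.85 FPKM in Shb-inactivated libraries and 1.31 to 1.95 FPKM in wild type libraries.

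Among the Jun genes, Jun (ENSMUSG00000052684.4, chromosome 4, 95049034 to 95052222, minus strand) had the smallest exact p of the 10 members. It was 70.3, 90.7, 91.8, 97.6, 53.0 and 78.2 FPKM in Shb-inactivated 1 to 6, against 42.8, 56.2, 97.6 and 52.7 FPKM in wild type 1 to 4. In Jun, 5 of the 6 Shb-inactivated libraries lay above wild type 1, 2 and 4, and wild type 3 lay among the highest. Jun averaged 80.3 ± 16.7 FPKM in Shb-inactivated libraries (SD, n = 6) and 62.3 ± 24.2 FPKM in wild type libraries (SD, n = 4), with a log2 fold change of 0.40 (SE 0.24, exact permutation p = 0.162). Junb (ENSMUSG00000052837.6, chromosome 8, 84974484 to 84978718, minus strand) encodes a Jun paralog that can restrain Jun. It was 153, 211, 113, 151, 95.4 and 146 FPKM in Shb-inactivated 1 to 6, against 84.5, 128, 282 and 122 FPKM in wild type 1 to 4. Wild type 3 was the highest library and wild type 1 the lowest. Junb averaged 145 ± 39.8 FPKM in Shb-inactivated libraries (SD, n = 6) and 154 ± 87.2 FPKM in wild type libraries (SD, n = 4), lower by the mean, while the log2 fold change was 0.02 (SE 0.32). Jund (ENSMUSG00000071076.6, chromosome 8, 70698949 to 70700616, plus strand), the least inducible Jun gene, was 16.4 to 34.1 FPKM in Shb-inactivated libraries and 16.6 to 26.4 FPKM in wild type libraries, with a log2 fold change of 0.13 (SE 0.21). Of the summed Jun family level, Junb made up 50.3% to 62.8% in Shb-inactivated libraries, against 56.5% to 69.4% in wild type ones.

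Some Jun family reads may belong to other genes, since whether counting used strand is not given in the sources used here. Gm11175 overlaps Jund on the other strand and was 31.6 to 66.8 FPKM in Shb-inactivated libraries and 37.2 to 59.3 FPKM in wild type libraries, above Jund in every library. Junos overlaps Jun on the other strand (4.89 to 15.9 FPKM in Shb-inactivated libraries, 5.21 to 11.97 FPKM in wild type libraries). Prdx2 overlaps Junb on the other strand (139.6 to 158.2 FPKM in Shb-inactivated libraries, 103.2 to 163.1 FPKM in wild type libraries). Dusp1 overlaps Ergic1 and other listed or clone-named genes, and Atf3 overlaps Gm24748. How reads were shared between these genes was not tested.

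Of the other members, Egr1 (ENSMUSG00000038418.7, chromosome 18, 34859823 to 34864984, plus strand) encodes a zinc finger factor induced through the ERK kinases. It was 18.8, 24.6, 20.2, 15.4, 14.9 and 17.2 FPKM in Shb-inactivated 1 to 6, against 5.79, 13.1, 35.4 and 9.79 FPKM in wild type 1 to 4. Every Shb-inactivated library lay above wild type 1, 2 and 4, and below wild type 3. The log2 fold change was 0.47 (SE 0.38). Atf3 (ENSMUSG00000026628.13, chromosome 1, 191170296 to 191218039, minus strand) encodes a stress-induced bZIP factor that can pair with Jun. It was 51.8, 87.3, 277, 244, 92.0 and 114 FPKM in Shb-inactivated 1 to 6, against 22.4, 89.3, 275 and 56.0 FPKM in wild type 1 to 4. The Itgam-rich libraries again formed the top 3, and the log2 fold change of 0.69 (SE 0.66) was the largest of the 10.

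Dusp1 (ENSMUSG00000024190.7, chromosome 17, 26505590 to 26562128, minus strand) encodes a phosphatase that switches off the MAP kinases which induce the other members. It was 143, 179.7, 239, 259, 160.2 and 131 FPKM in Shb-inactivated 1 to 6, against 82.1, 109, 348 and 98.7 FPKM in wild type 1 to 4. Its libraries stood as for Egr1, with every Shb-inactivated library above wild type 1, 2 and 4 and below wild type 3, and its log2 fold change was 0.44 (SE 0.38). Ier2 (ENSMUSG00000053560.4, chromosome 8, 84661331 to 84662852, minus strand), a nuclear immediate early protein, was 54.6, 71.9, 27.3, 31.8, 31.3 and 36.0 FPKM in Shb-inactivated 1 to 6, against 25.9, 36.8, 52.9 and 39.7 FPKM in wild type 1 to 4. Shb-inactivated 1 and 2, both low in small nucleolar RNA, were the highest, wild type 1, also low in it, was the lowest of all 10, and the 2 Itgam-rich Shb-inactivated libraries were among the lowest. The log2 fold change was 0.07 (SE 0.29).

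The relation to Itgam was described rather than tested, because the Itgam-rich libraries stood apart from the rest. Fos, Jun, Atf3 and Dusp1 were higher in all 3 Itgam-rich libraries than in any of the other 7, which is 4 of 10 members against 9.91% of tested genes. For Jun the margin was small, with 91.8 FPKM in Itgam-rich Shb-inactivated 3 and 90.7 FPKM in Shb-inactivated 2. Over the alternative settings the count of such members ran from 3 to 4. No member was lower in all 3, against 5.92%. Atf3 was 244 to 277 FPKM in the Itgam-rich libraries and 22.4 to 114 FPKM in the others, a ratio of medians of 3.15. The ratio was 2.51 for Fos, 1.98 for Dusp1 and 1.74 for Jun. For the remaining members it lay between 0.797 for Fosl2 and 1.36 for Fosb, with Ier2 at 0.866. The CRE letters shown above were in 3 of these 4 members (not in Jun) and, of the 4 others with a promoter entry, in Fosb and Junb and not in Fosl2 and Jund. The Jund window lies well before the GENCODE start of that gene, so its result does not describe the bases next to that start. With Lyz2, a myeloid lysozyme, as the marker the same 3 libraries stood apart. They were also the lowest in summed fibroblast and pericyte markers, with 54.7 and 94.0 FPKM in Shb-inactivated 3 and 4 and 129.9 FPKM in wild type 3, against 222 to 684 FPKM elsewhere. They were the highest in summed platelet markers, with 576 and 513 FPKM in Shb-inactivated 3 and 4 and 999 FPKM in wild type 3. Elsewhere that sum was at most 322 FPKM. Most of it in these 3 libraries was Pf4 (564, 498 and 926 FPKM). Ppbp was 8.93 and 11.1 FPKM in Shb-inactivated 3 and 4 and 62.0 FPKM in wild type 3, against 43.7 to 134 FPKM elsewhere. Over the 6 markers, mean log2(FPKM + 1) was lowest in Shb-inactivated 3 and 4 (2.47 and 2.63). It was 3.82 in wild type 3 and 2.86 to 4.32 elsewhere. The part of these cell types in the members' levels was not tested.

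**Figure D2:**
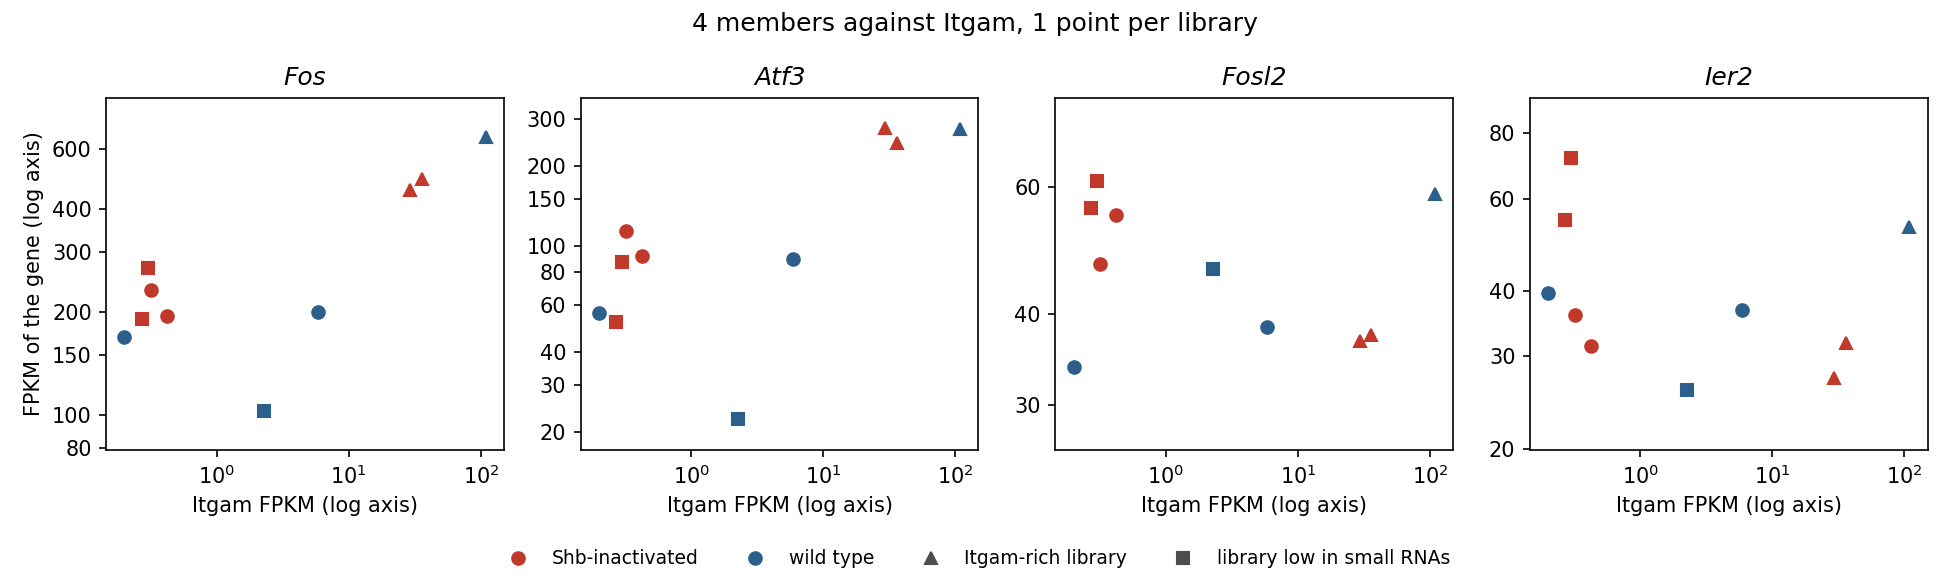
FPKM of Fos, Atf3, Fosl2 and Ier2 against FPKM of Itgam, both on log axes, 1 point per library (red, Shb-inactivated; blue, wild type). The 3 Itgam-rich libraries, drawn as triangles, are the top 3 for Fos and Atf3, and for Fosl2 and Ier2 they lie among the other libraries.

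Within the other 7 libraries the relation to Itgam rested on wild type 1 and 2, except in Junb, Jund and Ier2, where it changed little without them. Pearson's r between log2 values was below 0 in all 10 members, from -0.52 for Dusp1 to -0.19 for Atf3, where 45.1% of tested genes were above 0 and their median was -0.05. No r had an exact permutation p under 0.05, against 2.26% of all genes, and adjusted p over all genes was 1.00 to 2 decimals for each. Spearman's rho was above 0 for Fos (0.07) and Atf3 (0.21). Without wild type 1 and 2, the 2 libraries farthest from the median, r was 0.69 for Dusp1, 0.68 for Atf3, 0.63 for Fosl2, 0.36 for Egr1 and 0.33 for Fos, and from -0.36 to -0.0036 for the other 5. Itgam was only 0.2 to 0.42 FPKM in the 5 libraries left, near the floor. With Lyz2 in the same libraries the sign of those named was the opposite. The r was -0.34 for Dusp1, -0.86 for Atf3, -0.11 for Fosl2, -0.12 for Egr1 and -0.53 for Fos. For the other 5 members it ran from -0.10 to 0.27. Wild type 1 and 2 held most of the remaining Itgam, so this relation and the group contrast among the 7 libraries cannot be told apart.

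Setting aside the Itgam-rich libraries left 4 Shb-inactivated and 3 wild type libraries. The ratio of group means, Shb-inactivated over wild type, was then 1.20 to 1.97 over the members, against 0.940 to 1.31 with all 10 libraries, and was larger for each of them. Wild type 3, left out here, was the highest wild type library for all 10 members, so every wild type mean fell. For Fosl2, the Shb-inactivated libraries left out were also the lowest of their group (36.8 and 37.4 FPKM). The choice of libraries thus made larger ratios and separation of the groups likelier. All 10 members were higher in Shb-inactivated libraries, where 53.3% of tested genes were, with a median log2 difference of 0.49 against 0.02. In 3 of 10 members, Egr1, Dusp1 and Fosl2, the 4 Shb-inactivated libraries all lay above the 3 wild type libraries, against 4.4% of tested genes, and in none did they all lie below (2.35%). Egr1 averaged 18.9 ± 4.14 FPKM in Shb-inactivated libraries (SD, n = 4) and 9.57 ± 3.68 FPKM in wild type libraries (SD, n = 3), a ratio of 1.97. Dusp1 averaged 153 ± 21.2 FPKM in Shb-inactivated and 96.5 ± 13.4 FPKM in wild type libraries, a ratio of 1.59. Fosl2 averaged 54.7 ± 5.88 FPKM in Shb-inactivated and 39.5 ± 6.27 FPKM in wild type libraries, a ratio of 1.39. The exact permutation p was 0.0286 for Egr1 and Dusp1, the smallest that 35 arrangements allow, and 0.0571 for Fosl2. Under 0.05 by that test were 2 of 10 members and 3.36% of all genes. Limma's adjusted p over all genes was 0.84 for each of them. In the 7 libraries, wild type 1 and 2 still had more Itgam than any Shb-inactivated library, and wild type 1 had the most melanoma marker RNA. Summed platelet markers were 87.2 to 115 FPKM in the 4 Shb-inactivated libraries and 157 to 322 FPKM in the 3 wild type libraries. Pecam1 was at least 907 FPKM in the Shb-inactivated libraries and at most 864 FPKM in the wild type libraries. Their part in the difference was not tested.

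Wild type 3 alone set the overlap for Egr1 and Dusp1. Without it, 6 Shb-inactivated libraries all lay above 3 wild type libraries in those 2 genes, against 2.01% of tested genes, and all 10 members were higher in Shb-inactivated libraries (53.8% of tested genes). The exact permutation p was then 0.0119 for Egr1, 0.0238 for Dusp1 and 0.0357 for Jun, with 84 arrangements possible, so 3 of 10 members were under 0.05 against 5.55% of all genes. Egr1 averaged 18.5 FPKM in Shb-inactivated and 9.57 FPKM in wild type libraries, Dusp1 185 and 96.5 FPKM, and Jun 80.3 and 50.5 FPKM. Limma's adjusted p over all genes was 0.855 for these 3. Wild type 3 was the highest wild type library for each of them, so leaving it out for its values makes small p-values likelier. It also set Itgam-rich Shb-inactivated 3 and 4 against no Itgam-rich wild type library. Without all 3 Itgam-rich libraries, the exact permutation p was 0.0857 for Jun and 0.0286 for Egr1 and Dusp1. Within the Itgam-rich libraries the order was the other way for 7 members: both Shb-inactivated libraries lay below wild type 3 for all but Jun, Jund and Atf3, that is in 7 of 10 against 39.6% of tested genes. With 1 wild type library there, that contrast has no test.

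**Figure D3:**
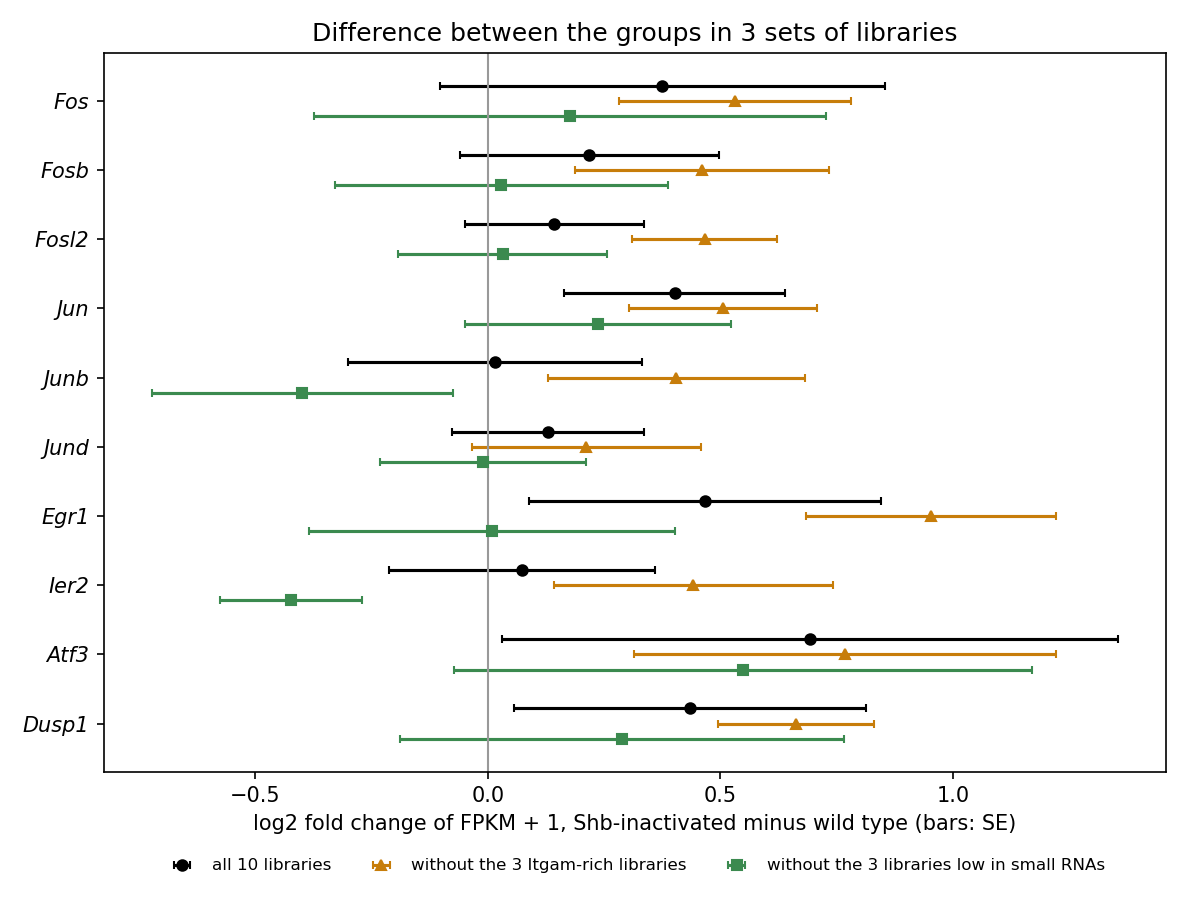
Log2 fold change of each immediate early gene, Shb-inactivated minus wild type, with its standard error, for all 10 libraries (black circles), without the 3 Itgam-rich libraries (orange triangles) and without the 3 libraries lowest in small nucleolar RNA (green squares). Every black and orange point lies above 0, and the green points of Junb, Jund and Ier2 lie below it.

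The libraries low in small nucleolar RNA bore on the direction of 3 members. Without Shb-inactivated 1 and 2 and wild type 1, the log2 fold change was -0.40 (SE 0.32) for Junb, -0.42 (SE 0.15) for Ier2 and -0.01 (SE 0.22) for Jund. The median over the 10 members was then 0.03, and 45.8% of all genes were above 0. Whether RNA quality or library preparation moved these genes was not tested.

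Heat shock genes are a second family known to be induced during tissue dissociation, and they served as a comparison. Their mean log2(FPKM + 1) over 14 genes was 6.00 and 6.07 in Shb-inactivated 3 and 4 and 5.97 in wild type 3, against 5.504 to 5.77 in the other Shb-inactivated libraries and 5.60 to 5.78 in the other wild type libraries. By this mean the Itgam-rich libraries were the highest, but gene by gene 2 of the 14, Hspa1a and Hspe1, were above all other libraries in those 3, against 9.91% of tested genes. Dnajb1, Bag3 and Cryab were lower there by the ratio of medians (0.895, 0.935 and 0.618). Since the 3 libraries stood apart on the mean and in Fos, Jun, Atf3 and Dusp1, no r over all 10 libraries is given. Over those 10, 8 members had an r above 0 (45.5% of tested genes) and 2, Fos and Atf3, an unadjusted permutation p under 0.05 (21.4% of tested genes), which rested on the Itgam-rich libraries. Within the other 7 libraries r with the heat shock level was below 0 for all 10 members, from -0.79 for Ier2 to -0.14 for Atf3, where 43.3% of tested genes were above 0 and their median was -0.09. Ier2 was the only member with an exact permutation p under 0.05 (p = 0.0327, adjusted 0.479 over all genes; rho -0.86), against 9.56% of all genes. The 2 libraries farthest from the median were Shb-inactivated 1 and wild type 1. Without them r was 0.67 for Atf3, 0.03 for Jun, 0.02 for Fosb and 0.01 for Fos, so the sign in these members rested on those libraries. For the other members it ran from -0.63 for Ier2 to -0.07 for Egr1. Spearman's rho of Atf3 was 0.18 already with all 7 libraries. Hspa1a, an inducible chaperone and 1 of the 2 genes that did separate them, was 15.6 and 26.7 FPKM in Shb-inactivated 3 and 4 and 29.9 FPKM in wild type 3, against 5.42 to 9.8 FPKM in the other Shb-inactivated and 5.19 to 11.04 FPKM in the other wild type libraries. Hspa8, a constitutive chaperone and the most abundant of the list, averaged 1330 ± 194 FPKM in Shb-inactivated libraries (SD, n = 6) and 1146 ± 156 FPKM in wild type libraries (SD, n = 4). None of the 14 heat shock genes passed limma, 7 were above 0, and their median log2 fold change was -0.0049.

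**Figure D4:**
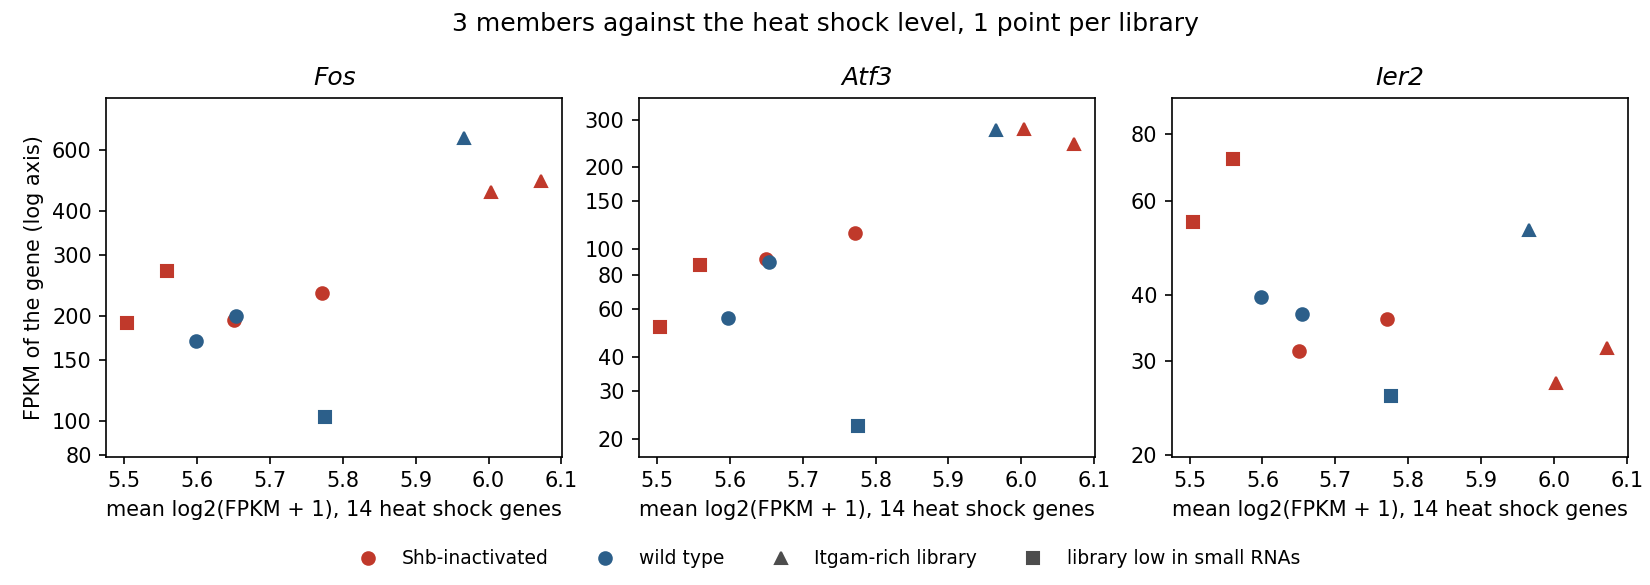
FPKM of Fos, Atf3 and Ier2 on a log axis against the mean log2(FPKM + 1) of 14 heat shock genes, 1 point per library (red, Shb-inactivated; blue, wild type). The 3 triangles, the Itgam-rich libraries, lie farthest right in each panel, at 5.97 to 6.07.

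Members varied together to different degrees. Pearson's r of each with the mean standardised level of the other 9 over 10 libraries was 0.91 for Egr1, 0.89 for Jun, 0.88 for Junb and Fosb, 0.83 for Dusp1 and 0.79 for Fos. It was 0.63 for Atf3, 0.59 for Jund, 0.56 for Ier2 and 0.37 for Fosl2. The points are the same 10 libraries for each gene and share their cell makeup, so these are descriptions. Among 9078 other genes with a mean of at least 5 FPKM, the closest to the mean member pattern were Csrnp1 (r = 0.96), Socs3 (0.96), Plk3 (0.95), Map3k8 (0.94), Plekho2 (0.94), Fbxo34 (0.94), Gm20412 (0.93), Pddc1 (0.92), Tnfsf12 (0.92) and St3gal4 (0.92). Csrnp1, which encodes a nuclear factor induced by AXIN1, and Socs3, a feedback inhibitor of cytokine signalling, belong to the list of other immediate early genes. Socs3 was 41.3 to 111 FPKM in Shb-inactivated libraries, highest in Shb-inactivated 2, and 25.9 to 152 FPKM in wild type libraries, highest in wild type 3. Of 24 other immediate early genes among the candidates, 5 were in the closest 100.

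**Figure D5:**
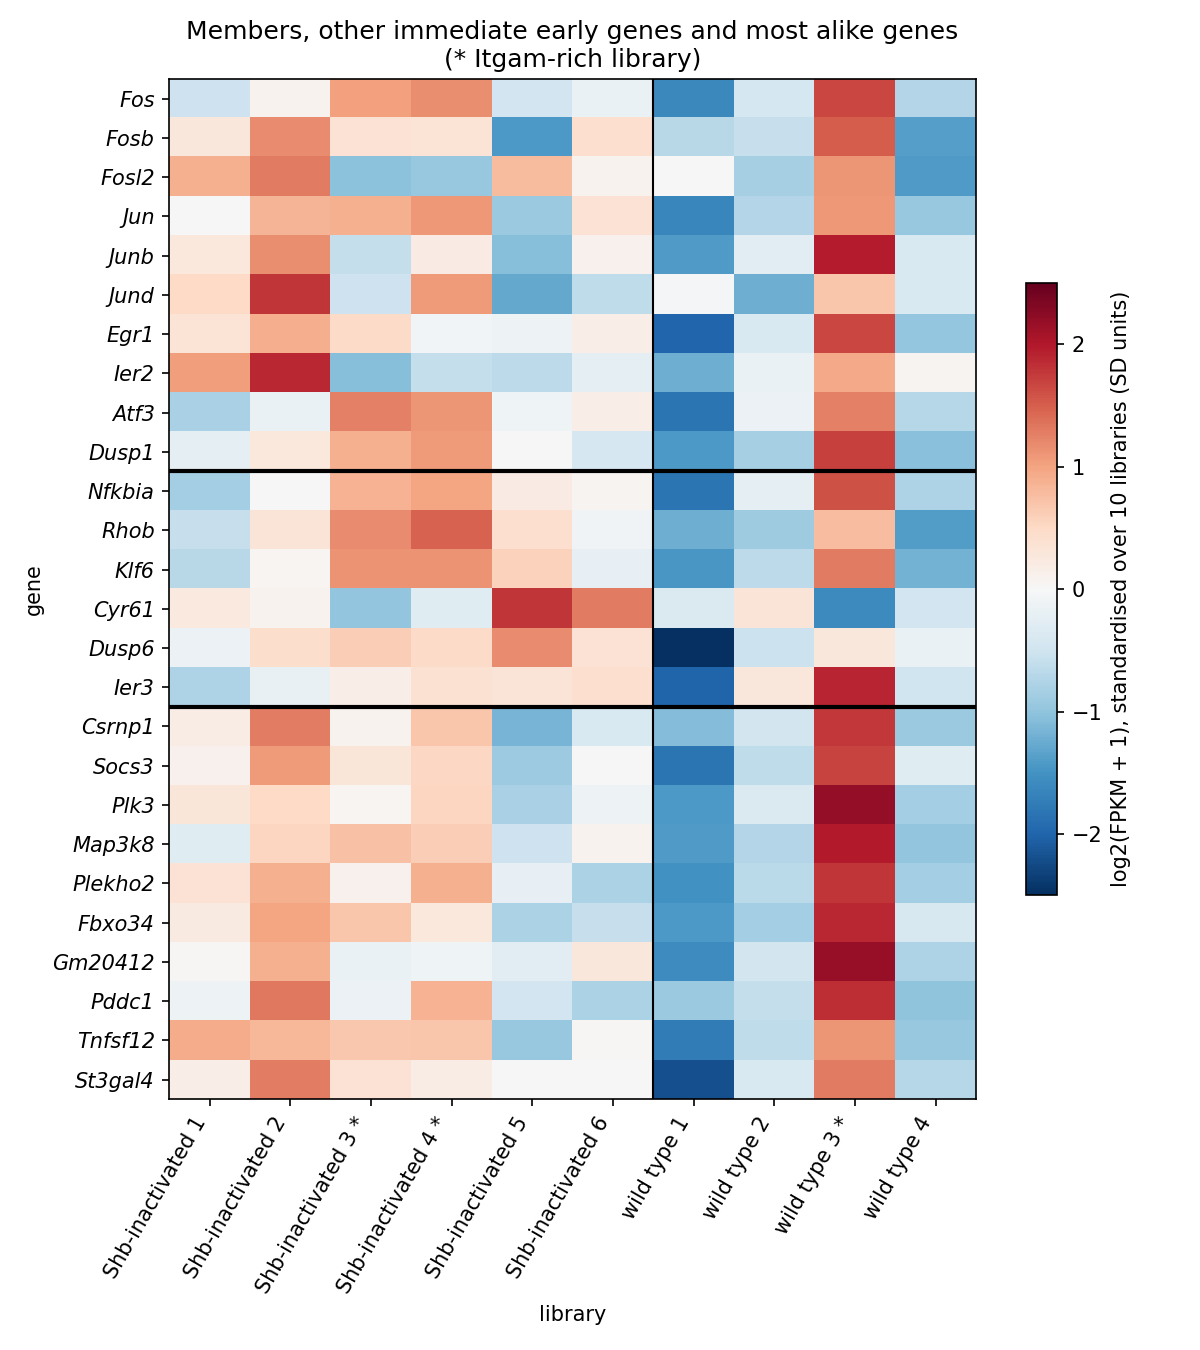
Log2(FPKM + 1), standardised over the 10 libraries, of the 10 immediate early genes (top), the 6 most abundant other immediate early genes (middle) and the 10 genes closest to the mean member pattern (bottom). Columns are libraries, Shb-inactivated left of wild type, with Itgam-rich libraries starred. Wild type 3 is red in most rows and wild type 1 blue, while Fosl2 and Ier2 are blue in Shb-inactivated 3 and 4.

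In a wider list of immediate early genes no gene passed either. Of 28 further such genes, 27 were tested, none passed limma (0% of all genes), 19 were above 0, and the median log2 fold change was 0.16 (-0.05 without wild type 1 and -0.19 without the libraries low in small nucleolar RNA). Rhob, a small GTPase, averaged 187 ± 47.8 FPKM in Shb-inactivated libraries (SD, n = 6) and 131 ± 48.04 FPKM in wild type libraries (SD, n = 4), a log2 fold change of 0.54 (SE 0.24). Dusp6, a phosphatase of ERK, averaged 129 ± 11.5 FPKM in Shb-inactivated and 103 ± 23.2 FPKM in wild type libraries, a log2 fold change of 0.36 (SE 0.15). These 2 genes had unadjusted limma p-values under 0.05, as did 3.45% of tested genes, and adjusted p = 0.989. Nfkbia, the inhibitor of NF-kappaB, averaged 226 FPKM in Shb-inactivated and 206 FPKM in wild type libraries, Klf6 181 and 138 FPKM, Cyr61 154 and 116 FPKM, and Ier3 98.7 and 128 FPKM. The 7 genes Egr2, Zfp36, Klf6, Nfkbia, Nfkbiz, Rhob and Tnfaip3 were higher in all 3 Itgam-rich libraries than in the other 7, and Fosl1 and Arc were lower, against 9.91% and 5.92% of tested genes. Without the Itgam-rich libraries, 4 of the 27, Btg2, Klf10, Dusp6 and Rhob, lay higher in all 4 Shb-inactivated than in all 3 wild type libraries, against 4.4% of tested genes. Those lists of names were read off after the values were seen.

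No gene upstream or downstream of AP-1 passed the test between the groups. Of 14 tested bZIP partners of other families, 6 were above 0 (median log2 fold change -0.03); Atf4, the most abundant, averaged 142 ± 13.7 FPKM in Shb-inactivated libraries (SD, n = 6) and 136 ± 29.1 FPKM in wild type libraries (SD, n = 4), and Crem 66.3 and 67.6 FPKM. Of 18 upstream kinases and serum response factors, 13 were above 0 (median 0.07). Elk3, a ternary complex partner of serum response factor, averaged 117 FPKM in Shb-inactivated and 94.2 FPKM in wild type libraries (log2 fold change 0.31, SE 0.13), and the kinase gene Rps6ka3 128 and 105 FPKM. Of 10 tested AP-1 target genes, 3 were above 0 (median -0.23, and 0.17 without wild type 3), and none of the 3 lists had a member that passed limma. The target genes moved with the Itgam-rich libraries: Hmox1, which encodes heme oxygenase, was 621 and 706 FPKM in Shb-inactivated 3 and 4 and 878 FPKM in wild type 3, against 20.9 to 27.7 FPKM in the other Shb-inactivated and 21.6 to 83.5 FPKM in the other wild type libraries. Plau, the urokinase gene, averaged 197 FPKM in Shb-inactivated and 154 FPKM in wild type libraries.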

How the data were processed

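Total RNA libraries of 10 samples, 6 Shb-inactivated and 4 wild type, were made with a stranded kit and ribosomal RNA depletion, as the labels' protocols state. The authors deposited FPKM by gene symbol, with a comma as decimal mark, made with TopHat2 2.1.1 and Cufflinks 2.2.1 on GRCm38, per the submitters' processing notes. Annotation and strand setting were not given in the sources used here, and depth is unknown. The series text gives separate mice, so p-values reflect the spread among libraries.

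Values were taken as log2(FPKM + 1), which understates changes of low genes. The 12805 genes reaching 1 FPKM in 4 or more libraries were fitted with limma 3.58.1 (R 4.3.3; mean-variance trend, no covariate, two-sided), with Benjamini-Hochberg adjusted p under 0.05 as the threshold. Single genes were tested by exact permutation over 210 arrangements, and correlations within 7 libraries over all 5040 orderings. Every fold change is Shb-inactivated minus wild type. The limma step was tested on simulated data. Gene structure came from GENCODE vM21, in which 25987 of 28454 symbols were found, and promoters from RefSeq tables (GRCm38.p6).

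The members and all lists were chosen with earlier results of these data known. The genes named were the members, Shb, the sort markers, the most abundant genes of each list (6 for immediate early and heat shock genes, 2 for the others) and the 10 genes closest to the member pattern; others named were chosen after their values were seen. Alternatives changed the pseudocount, filter, scaling, weights, covariates, treatment of zeros and libraries used. Plots were drawn with matplotlib 3.10.9.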

Additional observations from a re-analysis of the deposited data

Results flagged for a closer look

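Values standing apart within their group were looked for in 55 genes, 110 groups in all, and 6 were found, where chance gives about 1 in 20 groups. One concerned a member: Fosb in Shb-inactivated 5 was 17.5 FPKM, far below the next lowest Shb-inactivated library at 31.1 FPKM. The others were high or low single libraries of related genes. Pecam1 was 1237 FPKM in Shb-inactivated 5, against 955 FPKM in the next highest of that group. St3gal4 was 37.4 FPKM in Shb-inactivated 2, against 33.4 FPKM in the next highest. In wild type 1, Crem was low at 47.6 FPKM, against 73.5 FPKM in the next lowest wild type library, and Hspd1 was high at 143 FPKM, against 99.5 FPKM in the next highest. Pddc1 was 9.77 FPKM in wild type 3, against 6.88 FPKM in the next highest.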

How the results depend on the processing

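Over 25 alternatives no member was called, with adjusted p from 0.471 to 1.0, and 7 of the 10 kept a fold change above 0 in all of them; Junb, Jund and Ier2 did not. Without the 3 libraries low in small nucleolar RNA, log2 fold changes were -0.40 for Junb, -0.011 for Jund and -0.42 for Ier2. Leaving out the Itgam-rich libraries as well, an alternative chosen after seeing the data, gave -0.083, -0.049 and -0.18 for these genes and 6 called genes, none a member, against 0 in all other settings. Junb was -0.025 under quantile normalization. Ier2 was -0.054 when libraries were weighted by quality and -0.029 with melanoma markers as covariate. Leaving out 1 library at a time, Fos ran from 0.015 without wild type 1 to 0.90 without wild type 3, Fosb from 0.049 to 0.50, Fosl2 from 0.027 to 0.29, Jun from 0.25 to 0.64, Jund from 0.020 to 0.23, Junb from -0.22 to 0.35, Ier2 from -0.10 to 0.23, Egr1 from 0.12 to 0.93, Dusp1 from 0.21 to 0.90, Atf3 from 0.13 to 1.31 and the median over members from 0.14 to 0.57. Among the related lists, the median of other immediate early genes turned to -0.05 without wild type 1 and -0.19 without the libraries low in small nucleolar RNA. That of AP-1 targets turned to 0.17 without wild type 3, 0.07 with Itgam as covariate and 0.04 with the melanoma covariate. The medians of bZIP partners and heat shock genes, both near 0, changed sign in several settings and ran from -0.11 to 0.09 and from -0.05 to 0.19. Members with an exact permutation p under 0.05 numbered 0 to 3 over those settings, 3 without wild type 3, and 2 without the Itgam-rich libraries. Without wild type 3, Itgam-rich libraries remained in the Shb-inactivated group only. Members with r above 0 against the heat shock level numbered 8 over 10 libraries and 0 without the Itgam-rich ones. Members higher in every Itgam-rich library than in any other library numbered 3 to 4 over the alternatives. With the replicate block (replicates 1 to 4), 0 genes were called and the median over members was 0.46. The numbers did not pair the libraries throughout. After each gene's group mean was subtracted, same-numbered libraries correlated at 0.436, -0.319, 0.707 and -0.546 for replicates 1 to 4. The closest wild type library had the same number for replicates 1 and 3 and another number for replicates 2 and 4. The causes were not tested. Unknown depth limits the precision of low values.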
